A study of Mus musculus with 4 samples.

Results

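The 36 genes described here encode solute carriers of the brain barriers, membrane proteins of the Slc and Slco families that move sugars, amino acids, vitamins, hormones and ions into and out of the brain. They were chosen by symbol from a list, with earlier results of these data known. They are 36 of the 389 genes named Slc or Slco among the 31053 genes of the count tables. All 36 were found in the 4 single-cell RNA sequencing libraries of the series, CSD 1, CSD 2, HC 1 and HC 2. Wild-type male C57BL/6 mice, 12 to 14 weeks old, entered both conditions. For chronic social defeat (CSD), a mouse lived 14 days in the cage of an aggressive CD-1 male, behind a partition with holes that was taken out for 5 minutes a day. Home cage (HC) mice were kept for the same 14 days with a permanent partition and without these encounters, and the labels and the study's methods differ on whether the animal across it was a CD-1 mouse. Cells dissociated from the brains and enriched with beads against CD31, an endothelial surface protein, were pooled from 4 mice for each library. A library is therefore the replicate, with n = 2 for each condition, and mice within a pool cannot be told apart.

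Brain endothelial cells (EC) are sealed by tight junctions, so that glucose, amino acids and most other polar nutrients cross them only through carriers, and the same holds for the epithelium of the choroid plexus, which makes the cerebrospinal fluid. Slc2a1 (GLUT1) is the glucose carrier of the blood-brain barrier, Slc7a5 with its heavy chain Slc3a2 imports large neutral amino acids, and Slco1c1 carries thyroxine. Astrocytes clear glutamate through Slc1a2 and Slc1a3, and EC of fenestrated vessels in the choroid plexus and other leaky regions lack much of this program.

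Cells were clustered without the 36 genes, and classes were named from marker genes, so every class name below means cells that are like that type. Capillary EC numbered 893, 989, 721 and 1365 in CSD 1, CSD 2, HC 1 and HC 2, arterial EC 101, 62, 109 and 86, venous EC 30, 37, 22 and 11, choroid plexus cells 331, 52, 272 and 623, pericytes 83, 159, 83 and 229, arterial smooth muscle cells (SMC) 195, 63, 99 and 156, astrocytes 82, 168, 63 and 105 and microglia 1443, 473, 797 and 1073. Every marker of these 8 classes was detected in its own class. The libraries held 28619757, 30361474, 27297599 and 30250156 unique molecular identifiers (UMIs) in that order, and 14415 barcodes passed as cells with a median of 1844, 1908, 2357 and 1408 UMIs. CSD 2 stood apart, with 32.6% of its UMIs in cells against 51.8 to 56.8% in the others, 37.3% mitochondrial UMIs against 20.9 to 23.8%, and 52 choroid plexus cells. Free RNA in droplets without a cell carried Ttr, a choroid plexus transcript, at 10.6, 2.33, 11.1 and 14% of its UMIs. 20 cell barcodes occurred in more than 1 library. Levels are given in CPM, the UMIs of a gene divided by all UMIs of its class in a library and scaled to 1 common total, and ± is the SD over n = 4 libraries unless an SE is named.

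The 36 genes together took 1.63 ± 0.159% of all UMIs of capillary EC, 1.31 ± 0.153% in venous EC, 1.23 ± 0.219% in arterial EC and 0.953 ± 0.0977% in astrocytes. In oligodendrocyte precursor cells (OPC) the share was 0.357 ± 0.0314%, in choroid plexus cells 0.286 ± 0.0101%, in ependymal cells 0.251 ± 0.0139%, in pericytes 0.229 ± 0.0112%, in microglia 0.224 ± 0.0345% and in SMC 0.177 ± 0.00328%. Levels by class were measured in these 10 classes, and not in other named classes such as neurons and fibroblasts. Of the 36, 18 had their highest mean level in an EC class, 13 of them in capillary EC, 3 in arterial EC and 2 in venous EC. For 18 members all 4 libraries of the highest class lay above all 4 of the class that came next, and 14 members were lowest in choroid plexus cells. These counts were not made over all genes. At least 2-fold and without overlap of libraries, 41.2% of all genes were lower in choroid plexus cells than in capillary EC. Exons of 1 member, Slc5a3, overlap those of Mrps6 on the same strand, so its counts are uncertain.

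**Figure D1:**
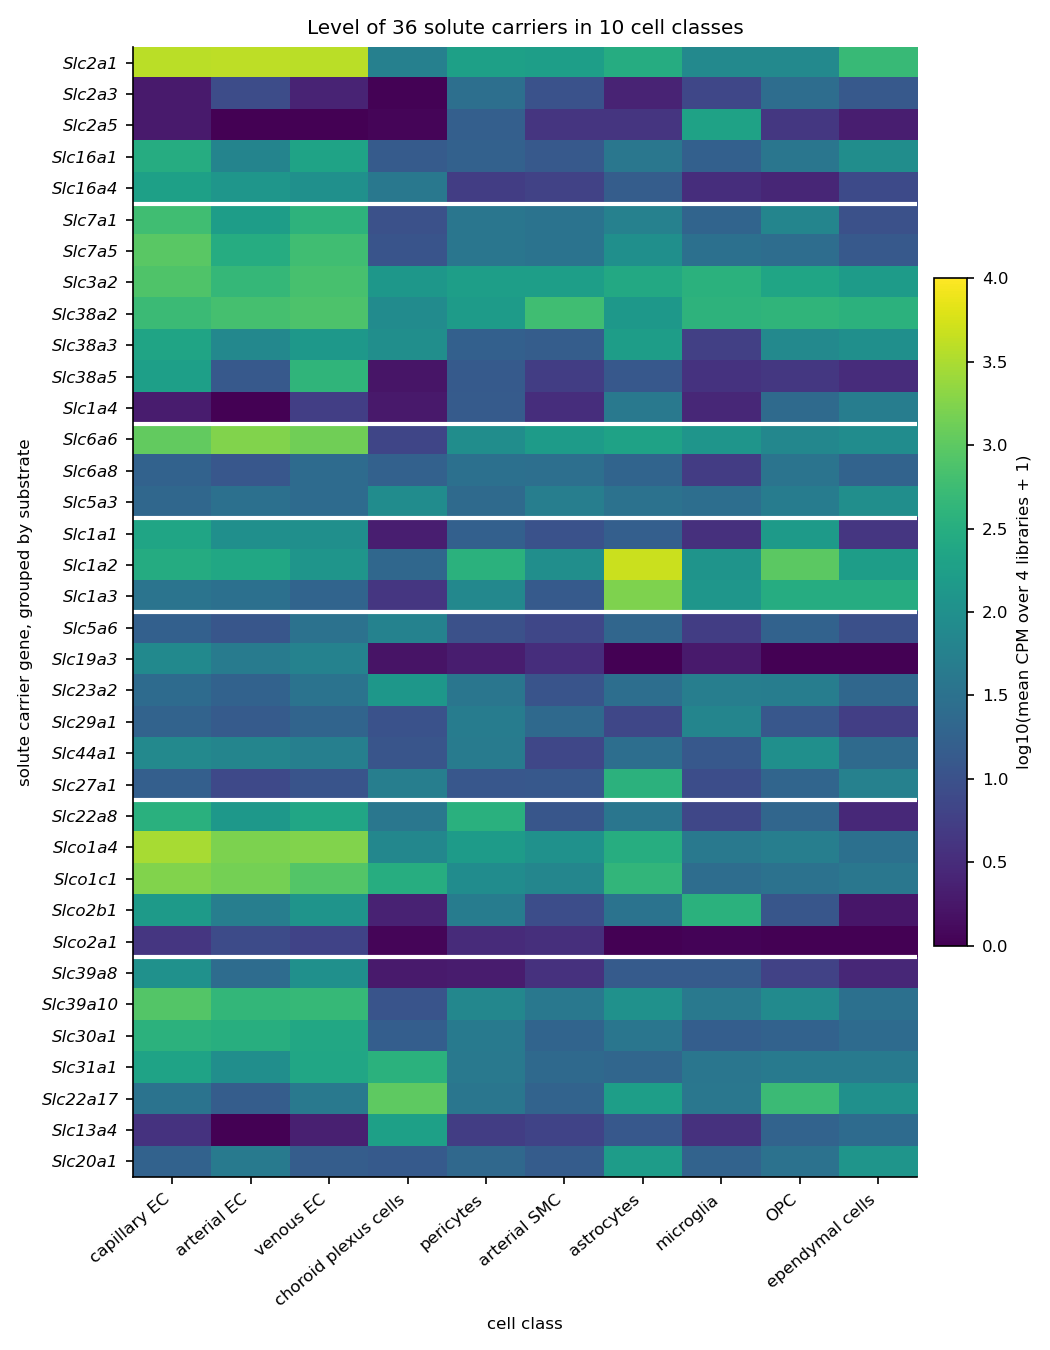
Mean level of the 36 solute carriers in 10 cell classes, with genes in rows grouped by what they carry, classes in columns and colour giving log10 of the mean CPM over 4 libraries plus 1. Slc2a1 stands at 3814, 3928 and 3858 CPM in the 3 EC classes and at 53.6 CPM in choroid plexus cells, and Slc1a2 reaches 4707 CPM in astrocytes.

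Among the carriers of hexoses and monocarboxylates, Slc2a1 was found at 4565 and 4773 CPM in CSD 1 and CSD 2 and 3019 and 2899 CPM in HC 1 and HC 2 in capillary EC. In arterial EC it stood at 3928 ± 1114 CPM, in venous EC at 3858 ± 1407 CPM and in capillary EC at 3814 ± 992 CPM. These 3 classes overlapped between libraries, and all 4 libraries of each lay above every library of the other 7 classes, of which ependymal cells came next at 499 ± 60.8 CPM. To compare cells at 1 depth, each was thinned to 500 UMIs, and a Slc2a1 UMI then remained in 87.4 and 87.6% of capillary EC in CSD 1 and CSD 2 and 73.8 and 73.7% in HC 1 and HC 2. Unthinned, the shares were 97.6, 96.9, 91.5 and 87.5%. Microglia, which were at 75.9 ± 20.3 CPM, gave thinned shares of 2.29 to 4.31%, and the source of these UMIs was not tested. Slc2a5 (GLUT5), a fructose carrier known from microglia, was at 186 and 201 CPM in CSD 1 and CSD 2 and 207 and 215 CPM in HC 1 and HC 2 in microglia. The next class was pericytes at 15.1 CPM. Free RNA held 14.6 CPM and made up an estimated 5.04 to 9.68% of pericyte UMIs. Microglia markers summed to 1141, 81.8, 1198 and 1497 CPM in CSD 1, CSD 2, HC 1 and HC 2 in pericytes, and the part of either was not tested. No Slc2a5 UMI was found in arterial or venous EC, which allows up to 2.79 and 5.01 CPM there. Slc2a3 (GLUT3), the main glucose carrier of neurons, stayed at or below 28.1 CPM in the 10 classes measured, with 5 UMIs in all capillary EC. Its level in the 51 cells named neurons was not measured. Slc16a1 (MCT1), a lactate and ketone body carrier, was highest in capillary EC at 227 and 462 CPM in CSD 1 and CSD 2 and 218 and 308 CPM in HC 1 and HC 2, where CSD 2 was high and the other 3 libraries lay lower. It reached 206 ± 79.6 CPM in venous and 63.4 ± 12.5 CPM in arterial EC. Slc16a4, of the same family, was at 185 ± 31 CPM in capillary EC, and all 4 libraries lay above those of arterial EC at 127 ± 8.34 CPM.

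Of the amino acid carriers, Slc7a5, Slc3a2, Slc7a1 and Slc38a3 had their highest mean level in capillary EC. Slc7a5 (LAT1) was at 792 and 1148 CPM in CSD 1 and CSD 2 and 923 and 974 CPM in HC 1 and HC 2 there, and all 4 values lay above those of venous EC, at 603 ± 129.7 CPM, and of arterial EC, at 295 ± 67.4 CPM. Its heavy chain Slc3a2 was at 782 ± 75.8 CPM in capillary, 693 ± 90.9 CPM in venous and 462 ± 75.2 CPM in arterial EC, and was also found in microglia at 363 ± 85.8 CPM and in every other class at 130.5 CPM or more. Slc7a1 (CAT1), which imports arginine and lysine, was at 587 ± 64.3 CPM in capillary EC. Of the glutamine carriers, Slc38a3 (SNAT3) was at 215 ± 21.9 CPM in capillary EC and 166 ± 8.39 CPM in astrocytes without overlap of the libraries. Slc38a5 (SNAT5) was the member that marked veins, at 376 and 548 CPM in CSD 1 and CSD 2 and 449 and 293 CPM in HC 1 and HC 2 in venous EC and 141 and 173 CPM in CSD 1 and CSD 2 and 192 and 204 CPM in HC 1 and HC 2 in capillary EC. Every venous library lay above every capillary library. Only 12 Slc38a5 UMIs were found in arterial EC, 12.1 ± 3.62 CPM. Slc38a2 (SNAT2), a sodium-coupled carrier of small neutral amino acids whose transcript is known to rise when amino acids run short, was spread widely, at 754 ± 124 CPM in venous, 659 ± 236 CPM in arterial and 525 ± 127 CPM in capillary EC, 582 ± 108 CPM in SMC and 390.0 ± 175 CPM in microglia. The 3 EC classes and SMC overlapped between libraries, and every microglia library lay below every venous one. Slc1a4 (ASCT1), a carrier of serine and alanine, was at 48.2 CPM in ependymal cells and 41.2 CPM in astrocytes, and had 6 UMIs in capillary EC.

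Of the carriers of osmolytes and creatine, Slc6a6 (TAUT), which takes up taurine, was at 758 and 1303 CPM in CSD 1 and CSD 2 and 1139 and 1240.5 CPM in HC 1 and HC 2 in capillary EC, 1734 ± 311 CPM in arterial and 1348 ± 476 CPM in venous EC. No other class exceeded 198 CPM on average, and choroid plexus cells held 5.77 CPM. The creatine carrier Slc6a8 was low everywhere, from 4.23 CPM in microglia to 34.2 CPM in OPC. Slc5a3, the myo-inositol carrier with the uncertain counts, was at 93.2 ± 24.4 CPM in ependymal cells and 86.2 ± 13 CPM in choroid plexus cells, which overlapped.

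The glutamate carriers were divided between glia and endothelium. Slc1a2 (GLT-1) was at 4686 and 5518 CPM in CSD 1 and CSD 2 and 4658 and 3967 CPM in HC 1 and HC 2 in astrocytes, with all libraries above OPC at 974 ± 412 CPM. In capillary EC it was at 285 ± 51.2 CPM, while free RNA held 1770.0 ± 425 CPM. With the estimated free RNA subtracted, 199 ± 52.8 CPM remained in capillary EC. Slc1a3 (GLAST) was at 1656 ± 297 CPM in astrocytes, followed by ependymal cells at 300.3 ± 62.5 CPM, OPC at 296 ± 29.8 CPM and microglia at 126 ± 35.3 CPM. Slc1a1 (EAAT3), which also carries cysteine, was at 214 and 281 CPM in CSD 1 and CSD 2 and 197 and 207 CPM in HC 1 and HC 2 in capillary EC, above all libraries of OPC at 150.4 ± 22.7 CPM, and at 18.5 CPM in free RNA.

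Vitamin and nutrient carriers were split by class. Slc19a3, which carries thiamine, was at 77.3 ± 15.7 CPM in capillary, 59.2 ± 26.7 CPM in venous and 44.8 ± 29.9 CPM in arterial EC and at no more than 2.37 CPM elsewhere. Slc23a2 (SVCT2), the vitamin C carrier, was highest in choroid plexus cells at 130.0 ± 17.8 CPM, as was Slc5a6, the carrier of biotin and pantothenate, at 57.4 ± 1.39 CPM. Both had all 4 choroid plexus libraries above the class that came next, microglia at 50.7 CPM and venous EC at 30.8 CPM. Slc27a1 (FATP1), a carrier of long-chain fatty acids, was at 444 and 433 CPM in CSD 1 and CSD 2 and 410.2 and 218 CPM in HC 1 and HC 2 in astrocytes and 15.2 CPM in capillary EC. Slc29a1 (ENT1), which equilibrates adenosine, reached 64 ± 4.84 CPM in microglia, with pericytes at 46.3 ± 14.3 CPM. The choline carrier Slc44a1 was at 99 ± 86.7 CPM in OPC and 74.2 ± 5.91 CPM in capillary EC, which overlapped.

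Among the carriers of organic anions and hormones, Slco1a4, a carrier of bile acids, steroid conjugates and drugs, was at 2618 and 3238 CPM in CSD 1 and CSD 2 and 3208 and 3098 CPM in HC 1 and HC 2 in capillary EC, 1771 ± 257 CPM in venous and 1600.4 ± 316 CPM in arterial EC. Slco1c1, the thyroxine carrier, was at 1717 ± 101 CPM in capillary and 1482 ± 177 CPM in arterial EC, which overlapped. It was at 836 ± 158 CPM in venous EC and at 310.0 ± 10.6 CPM in choroid plexus cells. It was also found in astrocytes, at 552 and 446 CPM in CSD 1 and CSD 2 and 735 and 583 CPM in HC 1 and HC 2. These astrocyte values are on the UMIs of the genes tested for CSD against HC only, a smaller total that gives higher values. The 7 EC markers summed to 1225, 1313, 1932 and 1651 CPM of all UMIs in astrocytes of CSD 1, CSD 2, HC 1 and HC 2. The part of EC RNA in the astrocyte values of Slco1c1 was not tested. Slc22a8 (OAT3), which exports organic anions, was at 342 ± 76.9 CPM in pericytes and 342 ± 59.2 CPM in capillary EC. The EC markers together were at 574 to 1244 CPM in pericytes and 19994 to 23060.5 CPM in capillary EC. Slco2b1, which also carries organic anions, was highest in microglia, at 355 ± 53.7 CPM, with every library above those of capillary EC at 149 ± 21.7 CPM. The prostaglandin carrier Slco2a1 was at no more than 7.15 CPM in the 10 classes, with 17 UMIs in capillary EC.

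Of the metal and ion carriers, Slc39a10, Slc39a8 and Slc30a1 were highest in capillary EC and Slc22a17, Slc31a1 and Slc13a4 in choroid plexus cells. Slc39a10 (ZIP10), a zinc importer, was at 712 and 963 CPM in CSD 1 and CSD 2 and 822 and 956 CPM in HC 1 and HC 2 in capillary EC and 478 ± 60.1 CPM in venous EC without overlap. Slc39a8 (ZIP8), which imports manganese and zinc, was at 106 ± 12.6 CPM in capillary and 101 ± 39.1 CPM in venous EC but 24.7 ± 16.1 CPM in arterial EC. Slc30a1 (ZnT1), which exports zinc from cells, was at 368 ± 128 CPM in capillary EC, 324 ± 111 CPM in arterial and 249 ± 76.7 CPM in venous EC, which overlapped. In choroid plexus cells the leading members were Slc22a17, a receptor for lipocalin 2, at 976 and 1102 CPM in CSD 1 and CSD 2 and 1041 and 1011 CPM in HC 1 and HC 2, the copper importer Slc31a1 at 353 ± 10.0 CPM and the sulfate carrier Slc13a4 at 189 ± 6.90 CPM. All 4 choroid plexus libraries lay above the class that came next, at 528 CPM for Slc22a17 in OPC, 228 CPM for Slc31a1 in venous EC and 24.3 CPM for Slc13a4 in ependymal cells. Slc20a1, a phosphate carrier, was at 160.2 ± 54.9 CPM in astrocytes and 122 ± 23.4 CPM in ependymal cells.

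Along the vessel tree, members were compared between segments by a rule of size, a mean level at least 2-fold different with no overlap of the 4 libraries, which is a description and no test. In arterial EC 10 of 32 members with enough UMIs were lower than in capillary EC, where 3.24% of all genes were, and 0 were higher, where 2.57% were. Enough UMIs meant at least 20 over both classes together, so a gene could enter through either class alone. The list was chosen as carriers of brain barriers with earlier results known, and the study names Slc7a5 and Slc16a1 as signature genes of capillary EC. The counts between segments therefore describe the list. Slc38a5 was 14.6-fold lower, Slc16a1 4.80-fold, Slc39a8 4.27-fold, Slc7a1 3.50-fold and Slc7a5 3.25-fold. Slc38a3, Slco2b1, Slc1a1, Slc27a1 and Slc31a1 were 2.23 to 2.91-fold lower. Venous EC were closer to capillary EC. Slc38a5 alone was higher there, 2.35-fold (1 of 32, against 1.4% of all genes), and Slc1a1, Slc1a2 and Slco1c1 were lower by 2.05 to 2.39-fold (3 of 32, against 3.39%). Between the ends of the tree, 7 of 30 members were higher in venous than in arterial EC, against 2.6% of all genes, and 0 were lower, against 3.96%. Beside Slc38a5, at 34.3-fold, these were Slc39a8 (4.09-fold), Slc16a1 (3.25-fold), Slc31a1, Slc7a1, Slco2b1 and Slc7a5 (2.04 to 2.48-fold). Without CSD 2, 16 members were lower in arterial than in capillary EC, where 4.74% of all genes were. In that setting 8 members were higher in venous than in arterial EC, against 3.79% of all genes. The 34.3-fold ratio of Slc38a5 rests on 12 UMIs in arterial EC. The venous class is small, with 30, 37, 22 and 11 cells. Its free RNA, estimated from Ttr alone, reached 33.1% in CSD 2 and 16.3% in HC 2. The estimate for CSD 2 is too high for Slc1a2, which free RNA of CSD 2 held at 2200 CPM. In venous EC of CSD 2 Slc1a2 was at 163 CPM, on the UMIs of the genes tested for CSD against HC only. That is less than a share of 33.1% would carry. The part of free RNA in these ratios was not tested.

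Capillary EC themselves were not uniform. A capillary cluster with arterial-side markers (425 cells), the other capillary clusters (2782 cells) and a capillary cluster with venous-side markers (761 cells) lay between arterial and venous EC. In that order from artery to vein, Slc38a5 had mean levels of 12.1, 42.9, 169, 288 and 416 CPM, with a step up of the mean at each part. The first step was seen in CSD 1 (14.9 to 85.7 CPM) and HC 2 (13.6 to 70.7 CPM). It was absent in CSD 2 (13.3 to 9.03 CPM) and HC 1 (6.81 to 6.05 CPM). The mean of Slc6a6 fell from the artery up to the venous side of the capillaries, at 1734, 1422, 1126 and 887 CPM, and stood at 1348 CPM in venous EC. Slc7a5 and Slc7a1 peaked in the capillaries, with 295, 679, 1003, 952 and 603 CPM for Slc7a5 and 168, 382, 607, 645 and 389 CPM for Slc7a1. The clusters were formed from other genes of the same cells, so these levels are a description.

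**Figure D2:**
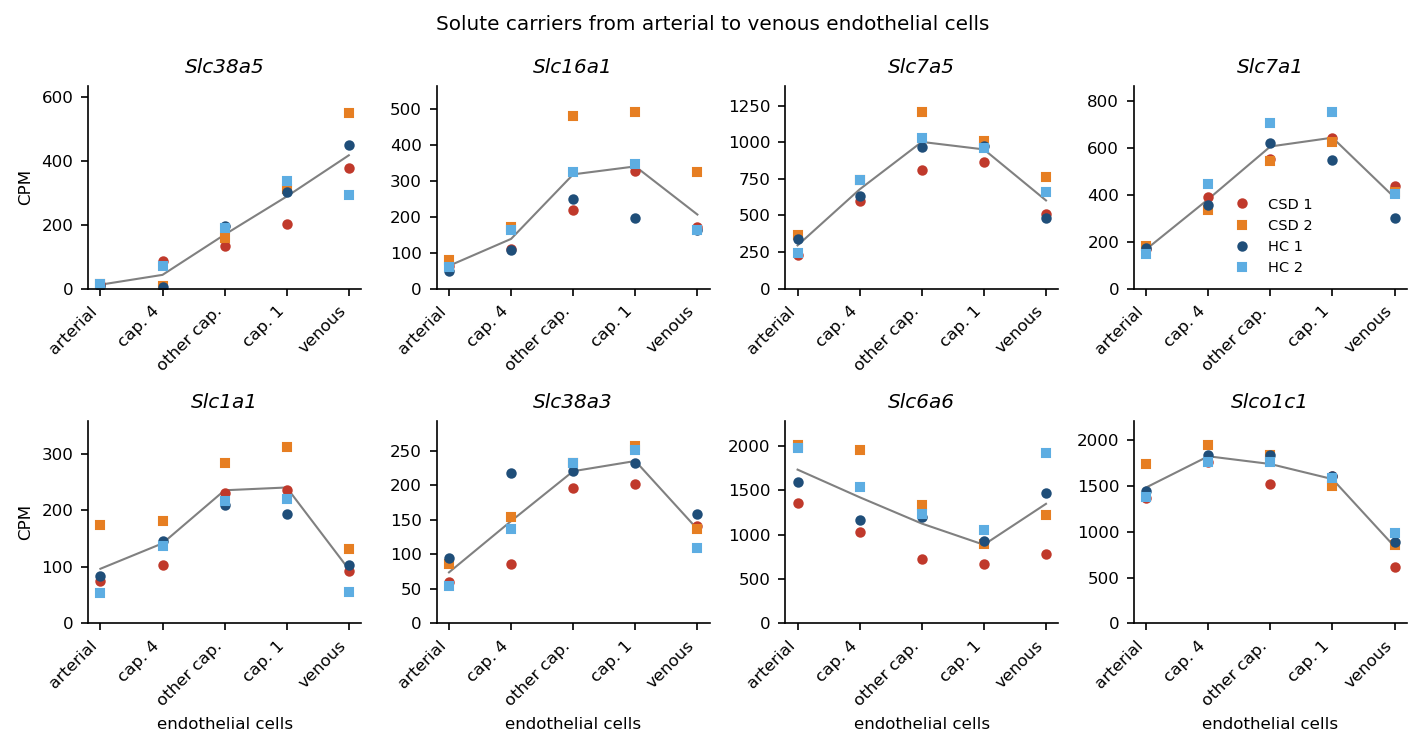
Levels of 8 solute carriers in CPM along 5 parts of the endothelium from artery to vein, each point 1 library and each grey line the mean of 4 libraries. Slc38a5 climbs from 12.1 to 416 CPM, whereas Slc7a5 is lowest in arterial EC at 295 CPM and reaches 1003 CPM in the middle capillary clusters.

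Against capillary EC by the same rule, in choroid plexus cells 6 of 34 members were higher and 23 lower, where 16.7% and 41.2% of all genes were. The 6 that were higher were Slc13a4, Slc22a17 (32.3-fold), Slc23a2 (5.34-fold), Slc5a3, Slc5a6 and Slc27a1. In microglia 6 of 35 members were higher and 22 lower, against 16.2% and 24.1% of all genes, and the higher ones were Slc2a5, Slc2a3, Slc1a3, Slc29a1, Slco2b1 and Slc23a2. In astrocytes 5 of 33 members were higher and 21 lower, against 14.4% and 16.9%, with Slc1a3 at 48.8-fold, Slc27a1 at 24.7-fold, Slc1a2 at 16.5-fold, Slc20a1 at 9.31-fold and Slc22a17 at 5.50-fold. In pericytes 2 of 32 members were higher and 19 lower, with Slc2a3 and Slc29a1 higher, against 9.86% and 11.3%, and in SMC 1 of 34 members were higher and 24 lower, with Slc2a3 higher, against 11.4% and 21.9%. The share of members that were lower stood above the share of all genes in each of these classes, and the share that were higher stood near it or below it. The list was chosen as carriers of brain barriers with earlier results known, and a gene could enter through its UMIs in capillary EC alone. This contrast therefore describes the list and is no test.

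A small cluster of 39 fenestrated EC (13, 3, 6 and 17 per library, 96481 UMIs in all) was read as 1 pool with exact Poisson intervals, which cover counting error only. Slc2a1 had 3 UMIs, 31.1 CPM with a 95% interval of 6.41 to 90.9, against 3876 CPM in pooled capillary EC. Slco1c1 had no UMI, with an upper bound of 38.2 CPM against 1724 CPM. Slc7a5 had 2 UMIs, 20.7 CPM with a 95% interval of 2.51 to 74.9, against 978 CPM, and Slco1a4 8 UMIs, 82.9 CPM with a 95% interval of 35.8 to 163, against 3062 CPM. The interval lay below the capillary level for 19 members, held it for 14 and lay above it for 3, counts that were not made over all genes. Those above were Slco2a1 with 13 UMIs, 135 CPM with a 95% interval of 71.7 to 230.4, against 3.11 CPM, Slc29a1 with 16 UMIs, 166 CPM with a 95% interval of 94.8 to 269, against 17.7 CPM, and Slc1a4 with 2 UMIs. Slc38a2 was among those that did not differ beyond counting error, at 456 CPM (331 to 612) against 528 CPM. Libraries were too thinly represented for a comparison of conditions in these cells.

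CSD and HC were then compared within each class on UMIs summed per library, with edgeR's quasi-likelihood test and the Benjamini-Hochberg adjustment over all genes tested in the class. In capillary EC, 31 of the 36 members passed the filter on low counts, and 0 passed an adjusted p of 0.05, where 0.542% of 9046 genes did. Unadjusted p lay below 0.05 for 4 of these 31, against 9.14% of genes. DESeq2, a second tool, called 2, Slc2a1 (adjusted p = 0.00131) and Slc38a2 (adjusted p = 0.0430), against 50 of 9046 genes. The median log2 fold change of the members was 0.03, and that of all genes -0.01. Libraries of the conditions did not overlap for 12 of the 31 members, 9 with CSD above and 3 with CSD below, against 40.3% of all genes. Those with CSD above were Slc2a1, Slc38a2, Slc30a1, Slc5a3, Slc1a1, Slc6a8, Slco2b1, Slc3a2 and Slc5a6, with log2 fold changes from 0.07 to 0.71, and those with CSD below were Slc16a4, Slc38a5 and Slc39a8, from -0.29 to -0.18. With a library left out a condition rests on 1 library. The number of members called by edgeR, like that of all genes, then depended on which library it was.

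Slc2a1 and Slc38a2 shared the smallest adjusted p. Levels of genes printed beside a log2 fold change of CSD against HC are normalized CPM. They are taken on the UMIs of genes past the filter on low counts in that class, scaled by TMM (edgeR's trimmed mean of M-values). They differ from the CPM on all UMIs by an amount that varies between classes, and are read only within a class. Marker sums are on all UMIs. The normalized level of Slc2a1 in capillary EC was 4778 and 4846 CPM in CSD 1 and CSD 2 and 3040.5 and 2853 CPM in HC 1 and HC 2. This was a log2 fold change of 0.71 ± 0.17 (SE) with an edgeR adjusted p of 0.0911. Both CSD libraries lay above both HC libraries, and the libraries of a condition lay close together. Slc38a2, chosen after its values were seen, was at 701 and 601 CPM in CSD 1 and CSD 2 and 414 and 420.1 CPM in HC 1 and HC 2, with a log2 fold change of 0.64 ± 0.15 and an edgeR adjusted p of 0.0911. Here too the conditions did not overlap. Both genes crossed the threshold when a CSD library was left out and moved further from it when an HC library was. For Slc2a1 the edgeR adjusted p was 0.00174 without CSD 1, 0.00193 without CSD 2, 0.387 without HC 1 and 0.638 without HC 2, and for Slc38a2 it was 0.0302, 3.03e-04, 0.493 and 0.507. The log2 fold change itself ranged from 0.66 to 0.77 for Slc2a1 over 13 alternatives. Slc30a1, chosen after its values were seen, was at 338 and 564 CPM in CSD 1 and CSD 2 and 267 and 321 CPM in HC 1 and HC 2, with a log2 fold change of 0.62 ± 0.21 and an edgeR adjusted p of 0.284, and CSD 2 stood high. Its log2 fold change was 0.94 without CSD 1 (edgeR adjusted p = 4.68e-05, called) and 0.20 without CSD 2 (0.715), and it was also called without the filter on low counts (0.0140). Adjusted p ran from 4.68e-05 to 0.777 over its 13 alternatives. The other carriers with the highest levels overlapped between conditions. Slco1a4 was at 2741 and 3288 CPM in CSD 1 and CSD 2 and 3232 and 3048 CPM in HC 1 and HC 2, a log2 fold change of -0.06 ± 0.17, and Slco1c1 had -0.01 ± 0.16, Slc7a5 0.08 ± 0.18 and Slc6a6 -0.16 ± 0.20, with edgeR adjusted p from 0.875 to 0.994. Each of these 4 changed sign when 1 library was left out, Slco1a4, Slco1c1 and Slc6a6 without CSD 1, Slco1a4 and Slco1c1 without HC 1 and Slc7a5 without CSD 2. Oligodendrocyte markers, 5 genes of a cell type outside the vessel, summed to 1312, 1158, 809.8 and 896 CPM in CSD 1, CSD 2, HC 1 and HC 2 in capillary EC, with 0 of 5 at 0. Like Slc2a1 they were higher in both CSD libraries, and their part in its values was not tested. Outside EC the 5 genes summed to 23.8 to 32.4 CPM in choroid plexus cells and 40.4 to 60.5 CPM in microglia. The sum was 47.7 to 133 CPM in SMC, 59 to 152 CPM in pericytes and 39 to 82.9 CPM in ependymal cells. It was 238 to 270 CPM in OPC and 180 to 1167 CPM in astrocytes.

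**Figure D3:**
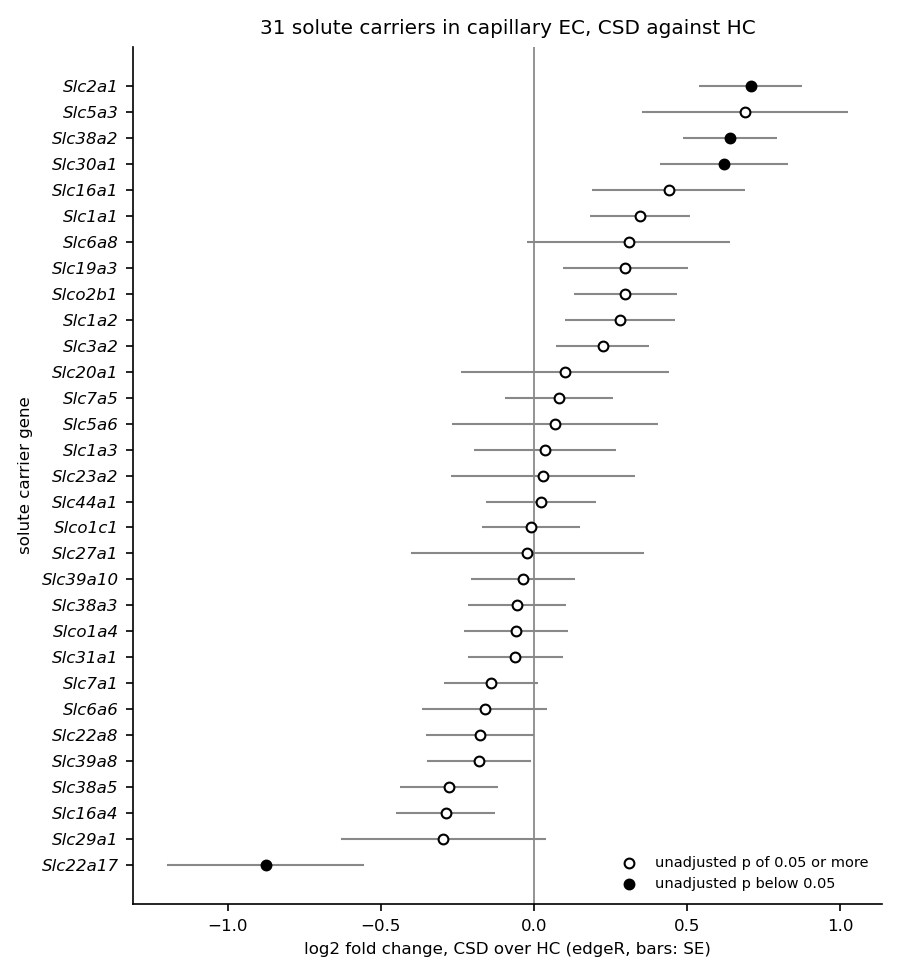
Log2 fold change of CSD over HC in capillary EC for the 31 members tested, with bars of 1 SE from edgeR and filled points for an unadjusted p below 0.05. Slc2a1 at 0.71, Slc38a2 at 0.64 and Slc30a1 at 0.62 lie right of 0, Slc22a17 at -0.88 left of it, and no member passed an adjusted p of 0.05.

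Sequences upstream of these 3 members are printed because Slc2a1, Slc38a2 and Slc30a1 had the smallest p of the members with CSD above HC. They are from RefSeq on build GRCm38.p6, from 250 to 11 bases before the start of the gene, 5′ to 3′ along the gene, and 31 of the 36 members matched an entry, with 49 windows in all. Capitals mark letters found by search on both strands for the hypoxia response element core ACGTG (15.9% of 32851 windows of this length held it), the AP-1 site TGANTCA (6.58%), the cAMP response element TGACGTCA (1.44%), the metal response element core TGCACNC or TGCGCNC (20.4%) and the GC box GGGCGG (31.3%).
Slc2a1 (chr4:119108495-119108734, forward strand): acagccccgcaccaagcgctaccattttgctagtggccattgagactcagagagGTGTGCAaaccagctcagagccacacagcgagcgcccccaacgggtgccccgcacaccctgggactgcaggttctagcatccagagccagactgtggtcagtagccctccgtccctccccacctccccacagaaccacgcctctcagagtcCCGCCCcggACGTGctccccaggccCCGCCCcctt
Slc38a2 (chr15:96699739-96699978, reverse strand): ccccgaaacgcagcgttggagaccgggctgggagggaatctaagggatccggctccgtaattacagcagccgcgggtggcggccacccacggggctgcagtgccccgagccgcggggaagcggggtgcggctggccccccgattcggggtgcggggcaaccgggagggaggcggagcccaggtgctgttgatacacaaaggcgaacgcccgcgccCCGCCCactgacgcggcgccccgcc
Slc30a1 (chr1:191906531-191906770, forward strand): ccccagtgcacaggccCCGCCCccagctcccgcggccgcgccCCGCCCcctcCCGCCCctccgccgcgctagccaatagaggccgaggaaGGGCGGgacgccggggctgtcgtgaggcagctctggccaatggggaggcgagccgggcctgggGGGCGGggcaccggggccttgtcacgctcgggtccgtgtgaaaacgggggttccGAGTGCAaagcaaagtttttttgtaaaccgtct
The window of Slc2a1 held 2 GC boxes, 1 ACGTG and 1 metal response element core, that of Slc38a2 1 GC box, and that of Slc30a1 5 GC boxes and 1 metal response element core. GC boxes occurred in 28 of the 49 windows of members, ACGTG in 12, the metal response element core in 10, the AP-1 site in 1 and the cAMP response element in 0. In GENCODE on the same build, Slc2a1 (ENSMUSG00000028645) spans chr4:119108711-119137983, and the last 24 bases of its window lie inside the annotated gene. Slc30a1 (ENSMUSG00000037434) spans chr1:191906767-191913247, with the last 4 bases of the window inside it. Slc38a2 (ENSMUSG00000022462) spans chr15:96687392-96699730, and its window ends 8 bases before the gene. A match is a run of letters and no evidence of binding.

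Slc2a1 was looked at in each of the 6 capillary clusters, since their shares differed between libraries, with one cluster holding 34.4% of the capillary EC of CSD 2 and 4.47% of those of HC 2. Another, with hemoglobin genes, Egr3, Atf3 and Fos among its leading genes, held more in both CSD libraries. Its shares were 10.8 and 9.20% in CSD 1 and CSD 2 and 6.38 and 4.91% in HC 1 and HC 2. In the cluster with arterial-side markers Slc2a1 was at 5292 and 5868 CPM in CSD 1 and CSD 2 and 3483 and 3292 CPM in HC 1 and HC 2, and in the cluster with venous-side markers at 4306 and 4582 CPM in CSD 1 and CSD 2 and 2863 and 2797 CPM in HC 1 and HC 2. In the cluster where Slc2a1 was lowest it was at 4339 and 4112 CPM in CSD 1 and CSD 2 and 2406 and 2559 CPM in HC 1 and HC 2. Both CSD libraries lay above both HC libraries in all 6 clusters, which was so for 35 of 3829 genes (0.914%) and for 1 of the 22 members with enough UMIs. The clusters hold cells of the same libraries and add no replicate of a condition. Slc2a1 was followed here after its pooled values were seen, and the 3829 genes were not matched to it in level. With the 6 clusters given equal weight, Slc2a1 was at 4598 and 4840.2 CPM in CSD 1 and CSD 2 and 2967 and 2884 CPM in HC 1 and HC 2, a ratio of 1.61. With the same weights Slc38a2 was at 676 and 571 CPM in CSD 1 and CSD 2 and 444 and 444 CPM in HC 1 and HC 2. Slc38a2 and Slc3a2 had both CSD libraries above both HC libraries in 4 of 6 clusters, and the mean of CSD above that of HC in 6. In the cluster where Slc2a1 was lowest, Slc38a2 was at 898 and 689 CPM in CSD 1 and CSD 2 and 879 and 535 CPM in HC 1 and HC 2, where the conditions overlapped.

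**Figure D4:**
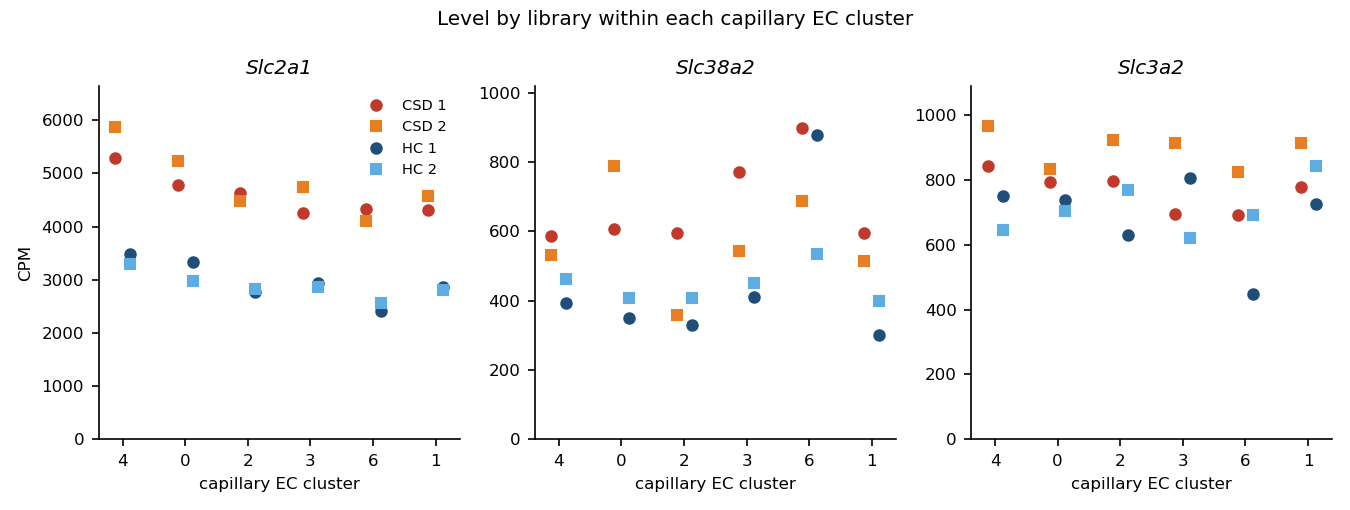
Level of Slc2a1, Slc38a2 and Slc3a2 in CPM in 6 capillary EC clusters, each point 1 library and colour giving the condition. For Slc2a1 the CSD points lie above the HC points in all 6 clusters, whereas for Slc38a2 and Slc3a2 the conditions overlap in 2 of 6.

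In arterial EC 0 of 21 members passed edgeR's adjusted p of 0.05, against 0.392% of 4083 genes, and DESeq2 called 0. Unadjusted p lay below 0.05 for 3 of the 21, against 5.76% of genes, and 5 did not overlap between conditions, against 33.6% of genes. Slc2a1 was at 5072 and 5809 CPM in CSD 1 and CSD 2 and 3386 and 3343 CPM in HC 1 and HC 2, a log2 fold change of 0.69 ± 0.22 (edgeR adjusted p = 0.268), and Slc38a2 at 1104 and 777 CPM in CSD 1 and CSD 2 and 587 and 492 CPM in HC 1 and HC 2, 0.80 ± 0.25 (edgeR adjusted p = 0.223). Neither gene overlapped between conditions. Without CSD 1, edgeR's adjusted p became 0.0193 for Slc2a1, and without CSD 2 0.00978 for Slc38a2. The oligodendrocyte markers summed to 1844, 1548, 953 and 779 CPM in CSD 1, CSD 2, HC 1 and HC 2, with 2 of 5 at 0. Slco1a4, Slco1c1 and Slc6a6 had log2 fold changes of 0.11 ± 0.23, 0.13 ± 0.23 and -0.08 ± 0.23. In venous EC 0 of 21 members passed edgeR's threshold, against 0.0983% of 3053 genes, and 2 of the 21 had an unadjusted p below 0.05, against 6.94% of genes. DESeq2 called 1, Slc2a1 (adjusted p = 0.0381), against 11 of 3053 genes. Conditions did not overlap for 7, against 36.4% of genes. Slc2a1 was at 5807 and 6186 CPM in CSD 1 and CSD 2 and 2929.6 and 3233 CPM in HC 1 and HC 2, a log2 fold change of 0.96 ± 0.24 (edgeR adjusted p = 0.208), which became 0.0324 without CSD 1. In the same cells the 9 venous markers summed to 6272, 10556, 3782 and 2340.4 CPM in CSD 1, CSD 2, HC 1 and HC 2, with 0 of 9 at 0, and the oligodendrocyte markers to 2148, 1605, 947 and 713 CPM in CSD 1, CSD 2, HC 1 and HC 2, with 1 of 5 at 0. Both lists, like Slc2a1, were higher in both CSD libraries in venous EC, and the oligodendrocyte list also in arterial EC, and their part in the values of Slc2a1 was not tested. Slc6a6 was at 920.0 and 1452 CPM in CSD 1 and CSD 2 and 1700.2 and 2248 CPM in HC 1 and HC 2, -0.72 ± 0.27 (edgeR adjusted p = 0.584), with CSD below HC. Slc38a2 overlapped, at 0.18 ± 0.25, as did Slco1a4, at 0.08 ± 0.24, and Slco1c1 was at -0.32 ± 0.25 without overlap. HC 2 gave only 11 venous cells.

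Whether the effect of CSD differed between segments was tested as an interaction of class and condition in edgeR, with the library as a block. Between arterial and capillary EC 0 members passed the adjusted p of 0.05, against 0% of genes, with 1 member, Slc22a8, below an unadjusted p of 0.05, against 4.08% of genes. Between venous and capillary EC 0 passed, against 0.0965%, with 3 (Slc38a5, Slc2a1 and Slc7a1) below an unadjusted p of 0.05, against 4.59%. For Slc2a1 the effect in venous EC exceeded that in capillary EC by 0.39 ± 0.20 on the log2 scale (edgeR adjusted p = 1). In arterial EC the effects of Slc2a1 differed by an amount that rounds to 0.00, with an SE of 0.13. Slc38a2 differed by 0.16 ± 0.18 between arterial and capillary EC and by -0.37 ± 0.24 between venous and capillary EC. DESeq2 was not run for these differences.

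**Figure D5:**
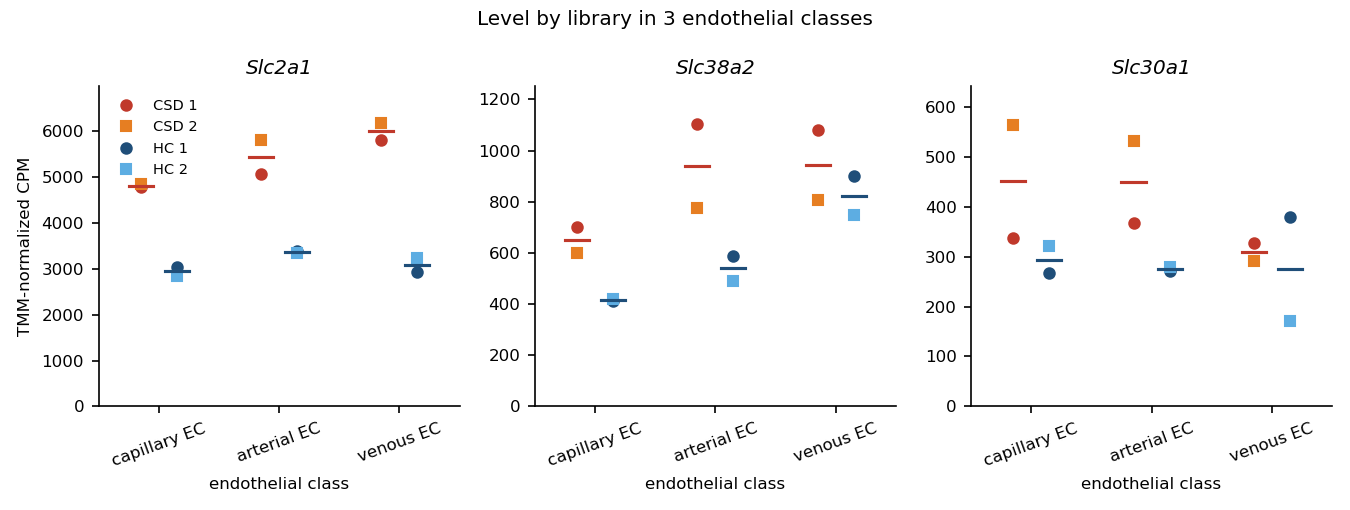
Normalized level of Slc2a1, Slc38a2 and Slc30a1 in CPM in capillary, arterial and venous EC, each point 1 library, bars the mean of the 2 libraries of a condition. Slc2a1 lies at 4812 against 2947 CPM in capillary EC and 5997 against 3081 CPM in venous EC, and Slc38a2 overlaps between conditions in venous EC. The totals behind the normalized CPM differ between classes, so levels are read within a class.

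In choroid plexus cells 0 of 30 members passed edgeR's threshold, against 0.114% of 11410 genes. 5 of the 30 had an unadjusted p below 0.05, against 3.72% of genes, DESeq2 called 0, and 9 did not overlap, against 29.2% of genes. Of the leading carriers of this epithelium, Slc22a17, Slc31a1 and Slco1c1 overlapped between conditions, and Slc13a4 and Slc3a2 did not. Slc22a17 was at 956 and 1109.6 CPM in CSD 1 and CSD 2 and 1039 and 1034 CPM in HC 1 and HC 2, a log2 fold change of -0.01 ± 0.16, Slc31a1 at -0.06 ± 0.16, Slc13a4 at -0.10 ± 0.16, Slco1c1 at -0.01 ± 0.16 and Slc3a2 at 0.34 ± 0.17, with edgeR adjusted p of 0.9999 for each. The 5 with the low p, named after their values were seen, were Slc30a1, Slc39a8, Slc6a6, Slc7a5 and Slc1a1, and none of them exceeded 17.8 CPM in a library. Against capillary EC, 0.166% of genes and 1 member, Slc6a6, passed the interaction test, at 1.31 ± 0.32. This call was lost without CSD 1, where the difference turned to -0.13, without HC 1 (0.88), without cells with markers of another lineage, where it turned to -0.75, with RLE size factors, without the filter on low counts, with the complexity filter and with clustering on all variable genes. The EC markers together were at 173, 145, 89.9 and 138 CPM in CSD 1, CSD 2, HC 1 and HC 2 in choroid plexus cells, and their part in these low levels was not tested.

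The remaining classes gave 0 members called by edgeR as well, against 0% of genes in pericytes, 0% in SMC, 0% in astrocytes and 0% in microglia. Members tested numbered 11, 17, 13 and 27, those with an unadjusted p below 0.05 numbered 2, 2, 2 and 4, against 4.13%, 3%, 1.47% and 1.64% of genes, and DESeq2 called 0, 0, 0 and 0. Among the members that lead in these classes, Slc1a2 in astrocytes was at 6549 and 7370.2 CPM in CSD 1 and CSD 2 and 6369 and 5535 CPM in HC 1 and HC 2, a log2 fold change of 0.23 ± 0.40, and Slc1a3 at 0.06 ± 0.43. Slc2a5 in microglia had -0.08 ± 0.24 and Slco2b1 0.06 ± 0.26. Slc38a2 in microglia was at 501 and 229 CPM in CSD 1 and CSD 2 and 543 and 274 CPM in HC 1 and HC 2, where replicate 1 of both conditions was high, and had -0.16 ± 0.47, or 0.42 without HC 1. In pericytes Slc22a8 had -0.24 ± 0.31 and Slc2a1 0.43 ± 0.32, which became -0.03 without cells with markers of another lineage, and in SMC Slc38a2 had -0.06 ± 0.22 and Slc2a1 0.48 ± 0.29, which became -0.04 without CSD 2. Slc6a6 was at 229 and 94.9 CPM in CSD 1 and CSD 2 and 386 and 384 CPM in HC 1 and HC 2 in astrocytes (-1.39 ± 0.50) and 98.1 and 53.8 CPM in CSD 1 and CSD 2 and 98.3 and 182 CPM in HC 1 and HC 2 in pericytes (-1.12 ± 0.44), named after their values were seen. Slco1a4, also highest in EC, had -1.37 ± 0.53 in astrocytes. There the 7 EC markers summed to 1225, 1313, 1932 and 1651 CPM in CSD 1, CSD 2, HC 1 and HC 2, likewise lower in both CSD libraries. In pericytes they summed to 1244, 830, 574 and 925 CPM in that order, where the conditions overlapped. The part of EC RNA in these values was not tested.

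For some members, markers of other cells are given beside the values. In capillary EC Slc22a17, a choroid plexus carrier named after its values were seen, was at 29 and 17.7 CPM in CSD 1 and CSD 2 and 28.7 and 53.3 CPM in HC 1 and HC 2, a log2 fold change of -0.88 ± 0.32 (edgeR adjusted p = 0.353), and the 8 choroid plexus markers summed to 6927, 1036, 5916 and 12058 CPM in CSD 1, CSD 2, HC 1 and HC 2, with 0 of 8 at 0. CSD 2 was lowest and HC 2 highest in both. The log2 fold change of Slc22a17 was -1.22 without CSD 1 (edgeR adjusted p = 0.0124), -1.21 without HC 1 (0.0499), -0.52 without CSD 2 (0.485) and -0.33 without HC 2 (0.997), and -0.45 in cells with at least 1000 UMIs. In microglia Slco1c1 was at 13.1 and 13.7 CPM in CSD 1 and CSD 2 and 23.8 and 53.1 CPM in HC 1 and HC 2 (-1.51 ± 0.41) and Slco1a4 at 28.6 and 19.7 CPM in CSD 1 and CSD 2 and 39.7 and 73.1 CPM in HC 1 and HC 2 (-1.21 ± 0.36), both endothelial carriers. The 7 EC markers there summed to 172, 104, 197 and 403 CPM in CSD 1, CSD 2, HC 1 and HC 2, with 0 of 7 at 0, and HC 2 was highest in all 3. The part of other cells' RNA in these values was not tested.

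Genes around the carriers were counted in capillary EC from lists written by function. Of 17 glycolysis genes tested 0 passed edgeR's threshold and 0 had an unadjusted p below 0.05, against 9.14% of all genes. A positive log2 fold change was found for 13 of the 17, against 48.8% of all genes, with a median of 0.09. Of 12 genes of the amino acid response, 1 rose, Ddit4, an inhibitor of the growth kinase mTORC1, at 253 and 197 CPM in CSD 1 and CSD 2 and 113 and 104 CPM in HC 1 and HC 2, a log2 fold change of 1.05 ± 0.17 (edgeR adjusted p = 0.0135). Other blood-brain barrier transport and junction genes gave 0 higher and 1 lower of 20, the transferrin receptor Tfrc, which imports iron, at 319 and 361 CPM in CSD 1 and CSD 2 and 737 and 660.1 CPM in HC 1 and HC 2, a log2 fold change of -1.04 ± 0.15 (edgeR adjusted p = 0.00900). Of 116 other Slc and Slco genes, 0 passed edgeR's threshold and 7 had an unadjusted p below 0.05 (6.03%, against 9.14% of all genes), with a median of 0.02. Of 20 immediate-early genes and genes known to be induced by tissue dissociation, 20 had a positive log2 fold change, against 48.8% of all genes, 17 an unadjusted p below 0.05, against 9.14%, and 2 passed the threshold, Fosb, a subunit of AP-1, at 1714 and 1849.6 CPM in CSD 1 and CSD 2 and 1104 and 883 CPM in HC 1 and HC 2, a log2 fold change of 0.84 ± 0.17 (edgeR adjusted p = 0.0378), and the chaperone Hspa1a at 1.07 ± 0.18. The median of this list was 0.67 in capillary EC, beside 0.71 for Slc2a1 and 0.64 for Slc38a2. In arterial EC it was 0.38, beside 0.69 and 0.80, and 3 of 19 had an unadjusted p below 0.05, against 5.76% of all genes. In venous EC it was 0.05, beside 0.96 and 0.18, and 0 of 19 had an unadjusted p below 0.05, against 6.94%. The part of this list in the values of the 2 carriers was not tested. The glycolysis list had a median of 0.10 in arterial EC, with 0 of 12 below an unadjusted edgeR p of 0.05, against 5.76% of all genes. In venous EC its median was 0.29, with 2 of 13 below that p, against 6.94%. In arterial EC Tfrc was lower too (-1.38 ± 0.33, edgeR adjusted p = 0.0450), and in choroid plexus cells the chaperone Hspa1b was higher (1.14 ± 0.22, edgeR adjusted p = 0.0364).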

How the data were processed

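For each of the 4 libraries the authors deposited a matrix of UMI counts, whole numbers per gene and barcode, without cell calling or normalization, from 10x Genomics 3′ v3.1 libraries. The labels name Cell Ranger 4.0 and the builds GRCm38 and mm10, the matrix headers name software version 3.1.0, and the study's methods name a further version. Reads were not analysed here, and no column of values was left unused.

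Barcodes with at least 500 UMIs, at least 250 genes and at most 25% mitochondrial UMIs were kept as cells (14415). They were clustered with scanpy 1.11.5 (Python 3.11.15, 2000 variable genes, 40 principal components, 20 neighbours, resolution 1.6 and 1.2 within EC, seed 42) after the 36 members and 689 genes of the study's table of differential genes were left out of the variable genes. Clusters were named from at least 3 markers, and 2142 cells stayed unnamed. No doublet caller was run. 857 cells with 5 or more UMIs of markers of another lineage were left in, and left out in an alternative. The 8 classes tested had at least 10 cells in every library. OPC, ependymal cells and fibroblasts did too and were not tested.

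Counts were summed per library and class and tested with edgeR 4.0.16 (R 4.3.3, quasi-likelihood functions glmQLFit and glmQLFTest after filterByExpr, on TMM-scaled libraries, two-sided), with DESeq2 1.42.0 as an alternative. Segments were compared for genes with at least 20 UMIs over both classes together. Free RNA was read from barcodes with at most 100 UMIs and scaled by Ttr. Intervals cover counting error only, and a count of 0 allows up to 3. Positions are from GENCODE vM21. The code was tested on simulated counts. The members and lists were chosen with earlier results of these data known. Members past the threshold and up to 5 per class with the highest mean CPM were named for CSD against HC, and of other list genes up to 4 per list and class that passed. Labels do not say more of the replicates than that they are separate pools, and p-values measure the spread between these.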

Additional observations from a re-analysis of the deposited data

Results flagged for a closer look

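The taurine carrier Slc6a6 passed the test for a CSD effect that differs between classes, a call that was lost without CSD 1. Its log2 fold change in choroid plexus cells exceeded that in capillary EC by 1.31 ± 0.32 (SE), with an edgeR adjusted p of 0.0272 from the interaction of class and condition over 10844 genes. In choroid plexus cells it was at 10.3 and 4.55 CPM in CSD 1 and CSD 2 and 2.68 and 5.53 CPM in HC 1 and HC 2, so that CSD 1 was high and the other 3 libraries overlapped, and in capillary EC at 758 and 1303 CPM in CSD 1 and CSD 2 and 1139 and 1240.5 CPM in HC 1 and HC 2. The class counts 154 Slc6a6 UMIs among 1278 cells. Without CSD 1 the difference was -0.13 (adjusted p = 1), without HC 1 0.88 (adjusted p = 0.769), and without cells holding markers of another lineage -0.75 (adjusted p = 1). Groups of 2 libraries are too small for the search for single outlying libraries.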

How the results depend on the processing

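The count of members called for CSD against HC was 0 in all 8 classes, and over 103 combinations of class and alternative it stayed at 0 in 88. In capillary EC it was 2 under DESeq2, 3 without the filter on low counts and 2 with the library number as a replicate block (Slc2a1 and Slc38a2, adjusted p = 0.0180 and 0.0180), and from 0 (without HC 2) to 5 (without CSD 1) when a library was left out. Without HC 1 the 1 member was Slc22a17, at -1.21. Leaving out a library gave 0 to 3 members in arterial EC, 0 to 1 in venous EC, 0 to 1 in choroid plexus cells, 0 to 1 in pericytes and 0 to 1 in SMC. DESeq2 called 1 in venous EC (Slc2a1), and microglia had 2 without the filter (Slco1c1 and Slco1a4, both lower). The cause of these differences was not tested. A lone library was assumed to vary like the others. Of 719 values of single members for CSD against HC, 654 kept their sign and their side of the threshold, 23 passed the threshold with the same sign and 42 changed sign below it, 33 of these when a library was left out. Slc30a1 in capillary EC ranged from 0.20 to 0.94.

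The 1 member called for a difference of effects between choroid plexus cells and capillary EC was Slc6a6. This call was lost (0 members) with RLE size factors (edgeR adjusted p = 0.262), without the filter (0.110), with the complexity filter (0.242) and with clustering on all variable genes (0.0786). It was also lost without cells with markers of another lineage, where the difference turned to -0.75. Leaving out a library gave 0 to 1 members and values from -0.13, turned, without CSD 1 to 1.92 without HC 2.

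The count of all genes called changed as well. Far more genes than members were tested, so the 2 counts are read as parts of their totals. Without the filter 3 of 36 members and 208 of 16239 genes were called in capillary EC. With the block 2 of 31 members and 173 of 9046 genes were called there. In capillary EC the count of 49 became 208 without the filter, 173 with the block, 407 without CSD 1 and 217 without CSD 2. Over all alternatives it ran from 1 to 52 in arterial EC (16 as reported), 0 to 53 in venous EC (3), 0 to 52 in choroid plexus cells (13), 0 to 72 in pericytes, 0 to 37 in SMC, 0 to 2 in astrocytes and 0 to 23 in microglia (0 each), and for the interactions from 0 to 4 in arterial EC (0), 2 to 14 in venous EC (8) and 6 to 32 in choroid plexus cells (18). The labels do not say whether libraries with the same number share a day or batch. Deviations of libraries with the same number correlated from -0.0266 to 0.497 over the 8 classes, highest in microglia and next in astrocytes (0.405). The block gave members called in capillary EC only. Of the members, 18 had their highest level in an EC class with Ttr left out of the total and with free RNA subtracted too, and 19 without CSD 2. That alternative, chosen after seeing the data, raised the members lower in arterial than in capillary EC from 10 to 16. The share of all genes that were lower there rose from 3.24% to 4.74%. The other counts of members between classes moved by no more than 1. With 2 libraries per condition and 11 venous cells in HC 2, small differences were not detectable.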
